A study of Danio rerio with 6 samples.

Results

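The C/EBP genes encode basic leucine zipper transcription factors, which bind DNA as dimers with each other or with other leucine zipper proteins. In mammals C/EBPα, C/EBPβ and C/EBPδ act in myeloid cells, where C/EBPα is needed for granulocytes to form and C/EBPβ takes part in emergency granulopoiesis and in macrophage activation. C/EBPγ lacks the activation domain of the other members and acts mainly as a dimer partner.

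Of 25130 gene identifiers in the 6 deposited files, 4 were members: CEBPB (ENSDARG00000042725), CEBPA (ENSDARG00000036074), CEBPG (ENSDARG00000036073) and CEBPD (ENSDARG00000087303). They were chosen by identifier for CEBPD and by symbol for the others. One more gene named by the rule, cebp1, had a row in 0 of 6 files and is not analysed here. Whether it stands there under another identifier was not settled, so its absence is not read as a level of 0. CEBPB, CEBPA and CEBPG had a row in 6 files and CEBPD in 5, the exception being 1 dpi replicate 2. Over all libraries CEBPB gave 22415 transcripts, CEBPA 2670, CEBPD 2515 and CEBPG 1274. These are tags of the 3′ end, and levels below are in CPM, a gene's transcripts scaled to a common total within a library or cell set.

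The cells came from TL zebrafish larvae carrying Tg(mpeg1:mCherry), in which regulatory sequence of a macrophage gene drives a red protein, so a sorted cell is mCherry-positive but need not be a macrophage. All larvae were reared in 1-phenyl-2-thiourea. The uninjured group was 1 library (replicate 2) from whole larvae at 4 days post fertilisation (dpf). The injured groups had the dorsal myotome pierced with a needle at 4 dpf, and cells came from the excised wound region at 1 day post injury (dpi; 5 dpf, 2 libraries), 2 dpi (6 dpf, 1 library) and 3 dpi (7 dpf, 2 libraries). Injury, age and tissue source cannot be told apart in the comparison with uninjured larvae. The labels do not say whether replicates came from separate animals, and the spread that p-values are judged against may be technical.

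Of 2304 wells, 1820 held at least 500 transcripts and were kept as cells. Libraries held 209 to 364 cells and 1363592 to 8346095 transcripts, with medians of 3017 to 10906 transcripts per cell. Cells with at least 0.2% of their transcripts from npsn and EPX, a granulocyte protein gene and a peroxidase gene, were called granulocytes. There were 265 of them. The uninjured library held 5, the 1 dpi replicates 29 and 21, the 2 dpi library 68, and the 3 dpi replicates 56 and 86. Other genes were compared across the gate. The macrophage gene MPEG1 lay at 0 to 53.3 CPM in granulocytes and at 136 to 575 CPM in the other cells. Of 20 further granulocyte genes tested, 15 were higher in granulocytes and 0 lower, beside 13.8% and 17.8% of all genes tested. Their list was chosen with earlier results of these data known, so it is no independent check of the gate. The uninjured library stood apart, since 18 wells over 50000 transcripts held 70.1% of its transcripts and its skeletal muscle marker list reached 68737 CPM. For this reason 3 subsets of the other cells are also given: wells with at least 1% of transcripts from marker lists of keratinocytes, fibroblasts, muscle, endothelium, red cells or metaphocytes (wells with tissue markers), the wells without them, and among the latter the cells with at least 0.5% from the macrophage list (macrophage-marker cells).

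CEBPB was higher in granulocytes than in the other cells of every injured library. Its level in granulocytes was 2429 and 1974 CPM in the 1 dpi replicates, 2042 CPM at 2 dpi, and 2167 and 2733 CPM in the 3 dpi replicates. In the other cells of the same libraries it was 1950.2, 1392, 1804, 1421 and 1199 CPM. Across libraries, the lowest granulocyte value, 1974 CPM, lay close to the highest value of other cells, 1950.2 CPM. The ratio within a library ran from 1.13 at 2 dpi to 2.28 in 3 dpi replicate 2. The paired difference was 0.62 on the log2 scale (SE 0.15), a 1.54-fold difference with a 95% interval of 1.25 to 1.89 (edgeR's quasi-likelihood test on sums per library with library as a block, Benjamini-Hochberg adjusted p = 0.000293). The SE and the interval rest largely on a spread that edgeR shares across genes, not on the ratios of CEBPB alone. In this comparison 31.6% of 5950 genes tested passed, and 1 of the 3 members tested did. The call was lost without 3 dpi replicate 2 (0.40, adjusted p = 0.101), with DESeq2 (adjusted p = 0.0544) and with no filter on low counts (0.26, adjusted p = 0.429).

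**Figure D1:**
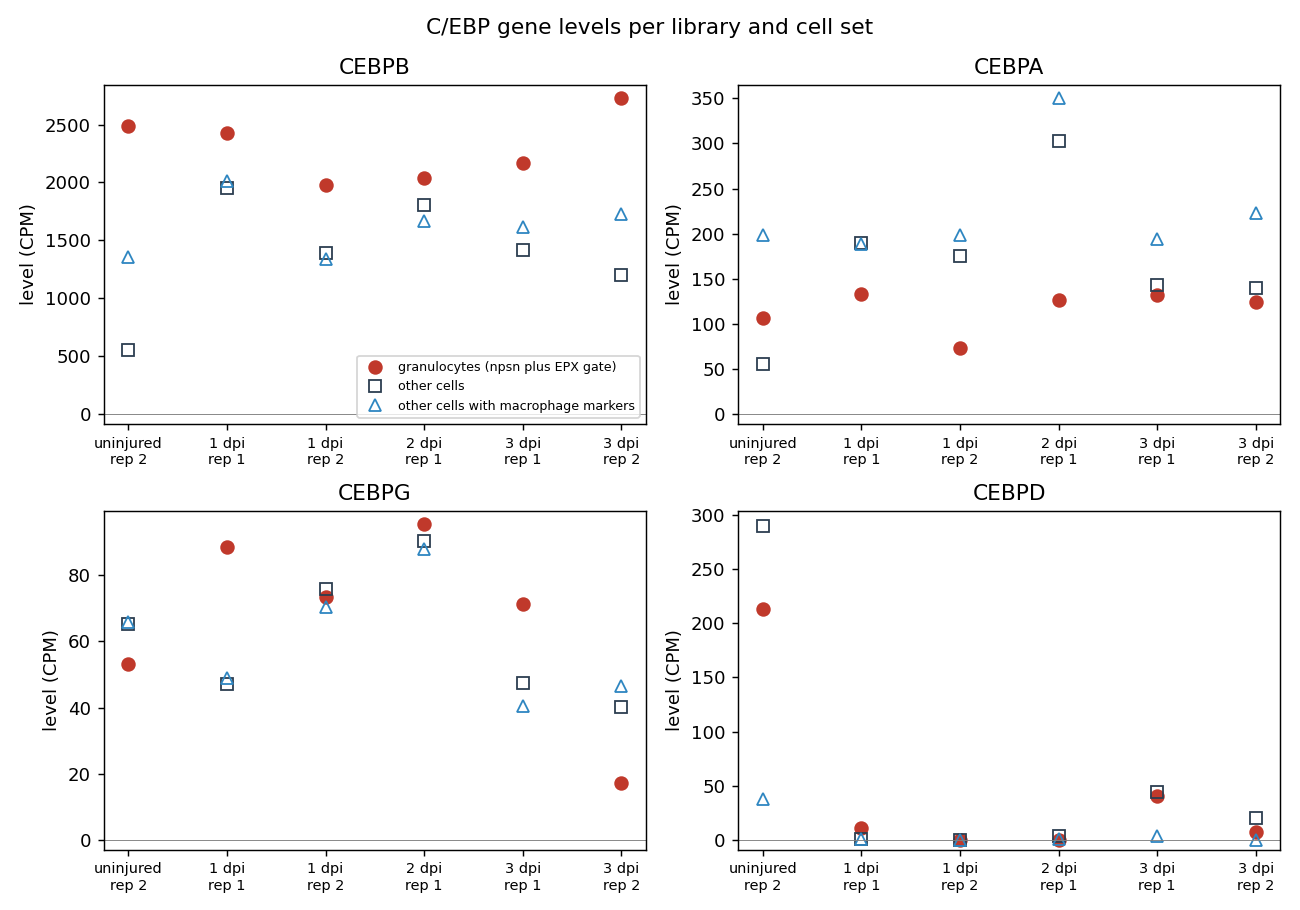
Level in CPM (linear axis) of CEBPB, CEBPA, CEBPG and CEBPD in each of the 6 libraries, for granulocytes (filled circles), all other cells (squares) and macrophage-marker cells (triangles). The CEBPB circles lie above the squares and triangles of their library throughout, the CEBPA circles lie below the triangles, and CEBPD is high in the other cells of the uninjured library at 289 CPM.

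The CEBPB difference was also present against the cells that carried macrophage markers. Macrophage-marker cells had 2010 and 1335 CPM at 1 dpi, 1672 CPM at 2 dpi, and 1616 and 1731 CPM at 3 dpi. Granulocytes were 1.21- to 1.58-fold higher within a library, in 5 of 5 libraries, and the edgeR difference was 0.53 (SE 0.14, adjusted p = 0.00159). This subset was chosen after seeing the data. CEBPB was low in the wells with tissue markers at 3 dpi, 624 CPM in 26 wells and 270.4 CPM in 20 wells. These wells lowered the level of the other cells there only in part. Without them the granulocyte ratio went from 1.53 to 1.38 in 3 dpi replicate 1 and from 2.28 to 2.11 in replicate 2. Against macrophage-marker cells it was 1.34 and 1.58. In replicate 2 the larger part of this step thus lay in wells with neither label. The 5 granulocytes of the uninjured library, too few for a test, held 2485 CPM against 1356 CPM in its 134 macrophage-marker cells. Of these 5, 2 also carried tissue markers at 1% or more.

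The share of cells with a CEBPB transcript pointed the same way. Each cell was thinned to 1000 transcripts, because shares depend on depth, and shallower cells were left out, which kept 196 to 352 cells per library. Granulocytes among them numbered 23 and 17 in the 1 dpi replicates, 64 at 2 dpi, and 52 and 76 in the 3 dpi replicates. After thinning CEBPB was found in 95.7% and 82.4% of granulocytes at 1 dpi, in 71.9% in the 2 dpi library, and in 76.9% and 82.9% at 3 dpi. The other cells gave 71.6%, 68.7%, 67.01%, 62.8% and 59.8% in the same order. The mean difference was 15.9 percentage points (SD 7.87, n = 5 libraries, higher in 5). The two-sided exact permutation test gave p = 0.062, the smallest that 5 pairs allow, and 0.25 after adjustment over the 4 members. The wells with tissue markers gave 37.5% and 31.6% in the 3 dpi replicates, at median depths of 3729 and 4674 transcripts. Without thinning the shares lay at 85.7% to 93.1% in granulocytes and 76.3% to 93.6% in the other cells.

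CEBPA showed lower values in granulocytes. Its level there was 133 and 73.5 CPM at 1 dpi, 126 CPM at 2 dpi, and 132 and 124 CPM at 3 dpi. In the other cells it was 189, 175, 303, 144 and 140.2 CPM. The granulocyte values rest on few transcripts, 17 in the 1 dpi replicates together and 62 in the 3 dpi replicates together. Granulocytes were below the other cells in 5 of 5 libraries, at 0.417 to 0.922 of their level. The edgeR difference was -0.56 (SE 0.25, 95% interval -1.06 to -0.07) and missed the threshold (adjusted p = 0.0755). Of 17 alternative settings, 12 brought it past the threshold.

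Against macrophage-marker cells, a comparison added after seeing the data, CEBPA was lower in granulocytes and passed the test. Macrophage-marker cells held 189, 199, 350.02, 194 and 223 CPM in the 5 injured libraries, and granulocytes stood at 0.361 to 0.704 of these levels. The difference was -0.88 (SE 0.24, adjusted p = 0.00197). After thinning, a CEBPA transcript was found in 12.1% to 20.98% of macrophage-marker cells and in 4.35% to 14.1% of granulocytes. The share of all other cells differed from that of granulocytes by a mean of -2.96 points in the direction granulocytes minus other cells (SD 3.67, n = 5, exact permutation p = 0.1875). CEBPB and CEBPA thus gave differences of opposite sign in the same libraries.

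CEBPG did not separate granulocytes from the other cells. It measured 88.6 and 73.5 CPM at 1 dpi, 95.6 CPM at 2 dpi, and 71.3 and 17.3 CPM at 3 dpi in granulocytes. The corresponding levels in other cells were 47.1, 75.9, 90.4, 47.6 and 40.2 CPM. The granulocyte values rest on 5 to 53 transcripts each, were higher in 3 libraries and lower in 2, and gave a difference of 0.18 (SE 0.35, 95% interval -0.50 to 0.85, adjusted p = 0.763). The interval holds differences as large as that of CEBPB.

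CEBPD had too few transcripts in granulocytes to be tested. The 1 dpi replicates held 1 and 0 transcripts there, the 2 dpi library 0, and the 3 dpi replicates 8 and 2. All 8 transcripts in 3 dpi replicate 1 came from 1 granulocyte that also carried 1.01% keratinocyte and 1.05% fibroblast marker transcripts. In the 68 granulocytes at 2 dpi, 0 transcripts allow a level of up to 5.41 CPM.

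The partner and regulator genes of the C/EBP family differed in both directions between granulocytes and other cells. Of 43 genes on the list 37 had a row and 25 were tested; 5 were higher (13.8% of all genes tested were), 8 were lower (17.8% of all) and 12 did not pass. Their median difference was -0.01, beside -0.15 for all genes tested. IRF8, a transcription factor that favours macrophage over granulocyte fate and is also on the macrophage list, was lower by a log2 difference of -2.65 (SE 0.60, adjusted p = 7.55e-05). The AP-1 genes FOSB and FOSL1 were lower as well, at -2.17 and -1.76.

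The 5 higher genes were nfil3-6, ATF3, JAK2, 1 of the 2 SOCS3 copies and SPI1. The gene nfil3-6, of the NFIL3 leucine zipper family, was at 199 and 250.1 CPM at 1 dpi, 253 CPM at 2 dpi, and 428 and 539 CPM at 3 dpi in granulocytes, against 51.2 to 112 CPM in other cells. Its difference was the highest on the list (1.90, SE 0.23, adjusted p = 1.04e-14). ATF3, a stress-induced leucine zipper gene, was higher by 1.22 (SE 0.21), and JAK2, a kinase of cytokine receptors, by 1.62 (SE 0.35). SOCS3 (ENSDARG00000026611), a feedback inhibitor of JAK signalling, and SPI1, which encodes the myeloid factor PU.1, were higher by 1.02 and 0.69. The entry spi1a, also on the list, had the opposite sign at -0.44 and did not pass (edgeR adjusted p = 0.110). SOCS3, SPI1 and spi1a, and the lower genes KLF6 (-0.77), FOS (-0.87) and DDIT3 (-0.71), were named after their values were seen. DDIT3 encodes CHOP, a C/EBP relative that forms dimers with the other members.

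**Figure D2:**
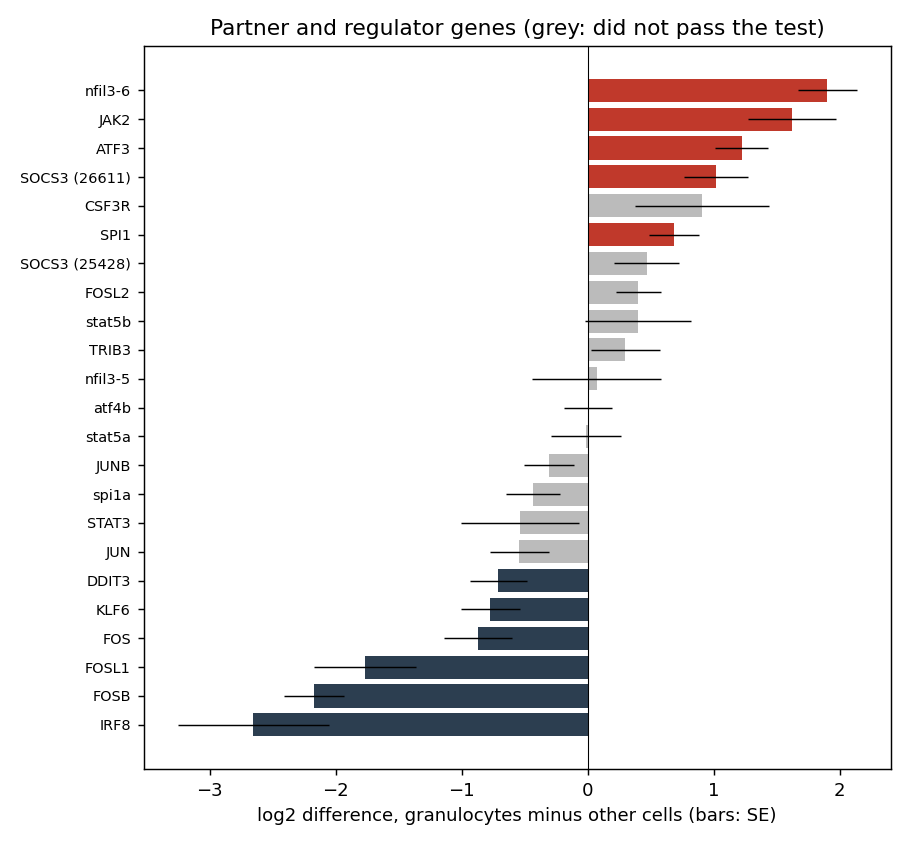
Log2 difference, granulocytes minus other cells, of 23 of the 25 tested partner and regulator genes over 5 injured libraries, with SE as error bars. Red genes were higher and dark genes lower at an adjusted p under 0.05 and grey genes did not pass; IRF8 at -2.65 and nfil3-6 at 1.90 mark the ends.

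Other granulocyte genes were also higher in this comparison, where the cells were gated on 2 genes of the same list. That list was chosen with earlier results of these data known. Of 20 tested without the 2 gate genes, 15 were higher and 0 lower, with a median of 2.18. Of all genes tested, 13.8% were higher and 17.8% lower. MMP9, a gelatinase, was higher by 5.61 (SE 0.16), ponzr6 by 6.26 (SE 0.32), scpp8 by 4.47 (SE 0.24) and the chemotaxin gene LECT2 (ENSDARG00000033227) by 3.32 (SE 0.21). ARG2, an arginase, was higher by 3.26 and the granule proteoglycan gene srgn by 2.34. The CEBPB difference was small beside these, and 80.3% of all tested genes had a lower difference than CEBPB.

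Between 1 dpi and 3 dpi, CEBPB, CEBPA and CEBPG did not pass the test in any cell set. Over all cells CEBPB measured 1982 and 1415 CPM at 1 dpi, 1834 CPM at 2 dpi, and 1524 and 1503 CPM at 3 dpi. The values at 3 dpi lay between those of the 1 dpi replicates, and the difference was -0.21 (SE 0.57, 95% interval -1.35 to 0.93, adjusted p = 0.838). In such sums, fewer cells with a gene and less RNA per cell cannot be told apart. Of the genes tested over all cells 8.99% passed, 5.53% higher and 3.46% lower at 3 dpi, as did 1 of 4 members, CEBPD.

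CEBPA over all cells was at 186 and 171 CPM at 1 dpi, 281 CPM at 2 dpi, and 142 and 137 CPM at 3 dpi. Both 3 dpi values lay below both 1 dpi values, but the difference of -0.39 (SE 0.49, 95% interval -1.36 to 0.58) did not pass (adjusted p = 0.628). The single 2 dpi library had the highest CEBPA level of the 6 libraries in all cells, in other cells and in macrophage-marker cells, and with 1 library it has no replicate check. CEBPG was at 49.9 and 75.8 CPM at 1 dpi, 91.1 CPM at 2 dpi, and 50.9 and 35.6 CPM at 3 dpi, with a difference of -0.54 (SE 0.51, adjusted p = 0.515). Within the order of levels, the 1 dpi and 3 dpi values of CEBPG overlapped.

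Among other cells alone, where 8.66% of genes passed, the differences were -0.37 for CEBPB, -0.39 for CEBPA and -0.49 for CEBPG, with adjusted p of 0.722, 0.652 and 0.583 by edgeR. In macrophage-marker cells CEBPB measured 2010 and 1335 CPM at 1 dpi and 1616 and 1731 CPM at 3 dpi, and there the sign turned (0.16, adjusted p = 0.859). Among granulocytes, where 0.234% of 3425 genes passed, CEBPB differed by 0.31 (SE 0.34), CEBPA by 0.43 (SE 0.62) and CEBPG by -0.80 (SE 0.81), and 0 of the 3 passed in edgeR. At an unadjusted p under 0.05, 360 genes passed there, and none of the 3 members was among them. After thinning, 73.7% and 69.9% of all cells had a CEBPB transcript at 1 dpi and 65.7% in each 3 dpi replicate, a difference of -6.09 points (pooled SD 1.89, exact permutation p = 0.33, the smallest possible for 2 against 2). The shares of CEBPA, CEBPG and CEBPD differed by -4.00, -1.75 and 1.70 points, each with the same p.

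The granulocyte difference itself was compared between times. The value at 3 dpi minus that at 1 dpi was 0.50 (SE 0.30) for CEBPB, 0.67 (SE 0.60) for CEBPA and -0.63 (SE 0.85) for CEBPG. For CEBPA this is a smaller gap at 3 dpi, where granulocytes stood at 0.922 and 0.887 of the level of other cells, than at 1 dpi, where they stood at 0.701 and 0.421. None passed (edgeR adjusted p = 0.721, 0.831 and 0.908), in a test where 0.319% of genes did. The granulocytes of the 1 dpi replicates together held 17 CEBPA transcripts.

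**Figure D3:**
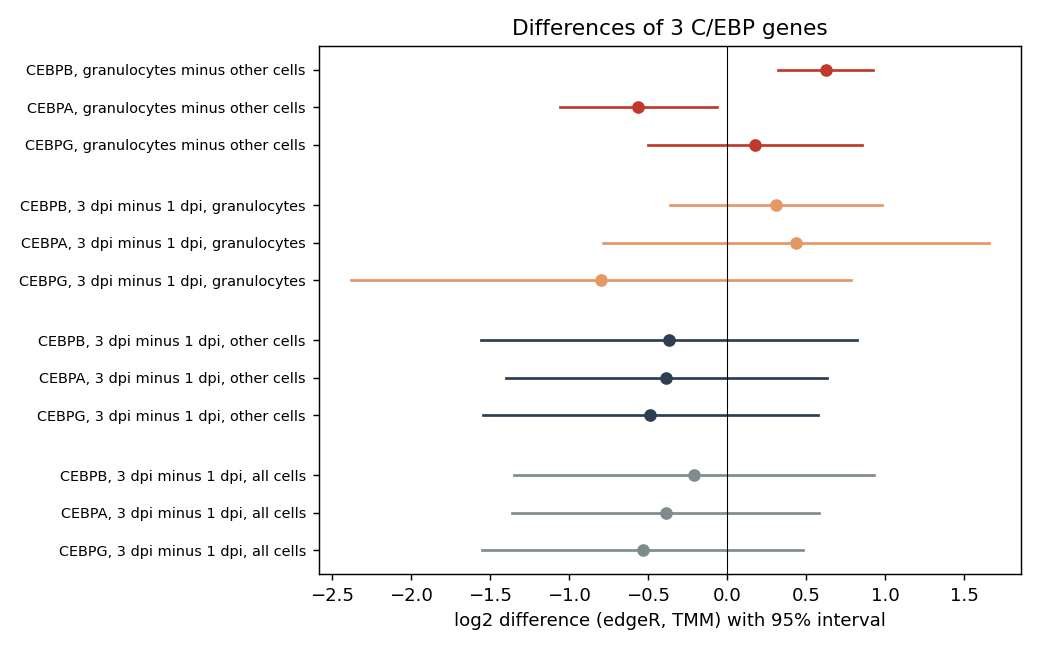
Log2 differences of CEBPB, CEBPA and CEBPG with 95% intervals from edgeR, for granulocytes minus other cells and for 3 dpi minus 1 dpi in granulocytes, other cells and all cells. The CEBPB interval for granulocytes minus other cells lies above 0, from 0.32 to 0.92, that of CEBPA lies just below 0 and did not pass after adjustment, and each time interval spans 0.

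From 1 dpi to 3 dpi over all cells, 5.53% of all genes tested rose and 3.46% fell. Of the partner and regulator genes, 1 of 31 tested rose and 0 fell. This was FOSL1, an AP-1 gene, at 37.4 and 42.8 CPM at 1 dpi and 102 and 165 CPM at 3 dpi. The rise was 1.65 (SE 0.50, edgeR adjusted p = 0.028), and it was 1.74 (edgeR adjusted p = 0.0248) in other cells alone. Both sums hold the wells with tissue markers, 9 and 0 in the 1 dpi replicates and 26 and 20 in the 3 dpi replicates. Whether the FOSL1 rise holds without these wells was not tested. FOSL1 was also lower in granulocytes than in other cells, as given above. The median of the list was 0.28, the same as for all genes tested. Of the granulocyte genes, scpp8 and ponzr6 rose, by 1.71 and 1.74, while the granulocyte share went from 9.70% and 10.05% of cells to 20.3% and 25.98%.

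CEBPD, which encodes an inflammation-responsive member in mammals, was found in few cells of the injured libraries, 2 and 0 in the 1 dpi replicates, 6 in the 2 dpi library and 14 and 9 in the 3 dpi replicates, but in 91 cells of the uninjured one. It gave 2 and 0 transcripts in the 1 dpi replicates, 13 in the 2 dpi library, 62 and 26 in the 3 dpi replicates, and 2412 in the uninjured library. As levels these were 1.47 and 0 CPM, 2.91 CPM, 43.8 and 17.8 CPM, and 289 CPM. The 0 in 1 dpi replicate 2 allows up to 1.74 CPM. The 88 transcripts at 3 dpi against 2 at 1 dpi gave a ratio of 47.3 with a counting interval of 12.7 to 397 (exact, counting error only), and edgeR's adjusted p was 3.7e-05. The call was lost without 1 dpi replicate 2 (adjusted p = 0.0808), and with only the 1 dpi and 3 dpi libraries in the fit (adjusted p = 0.0949), where edgeR called 0 of 8730 genes and 2555 had an unadjusted p under 0.05.

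In the uninjured, 2 dpi and 3 dpi libraries most CEBPD transcripts lay in wells that carried markers of other tissues. Of its transcripts, 96.3% in the uninjured library, 61.6% at 2 dpi, and 75.8% and 76.9% in the 3 dpi replicates fell in wells with tissue markers. Such wells numbered 185, 5, 26 and 20 in these libraries, and 9 and 0 at 1 dpi. They differed in kind, and a well could pass on more than 1 list. In the uninjured library 155 of 185 passed on muscle markers, against 0 at 3 dpi. In 3 dpi replicate 1, 21 of 26 passed on keratinocyte markers, and in replicate 2, 15 of 20 on metaphocyte markers. At least 1% macrophage markers were also present in 39 of the 185, 5 of the 26 and 1 of the 20. Their CEBPD level was 348 CPM in the uninjured library, 138 CPM at 2 dpi, and 245 and 180.3 CPM at 3 dpi. In other cells without tissue markers it was 49.7 CPM, 0.815 and 0 CPM, 1.296 CPM, and 6.81 and 3.78 CPM in the order of uninjured, 1, 2 and 3 dpi. The wells with tissue markers stood above the wells without them in the 4 libraries other than those of 1 dpi. At 2 dpi this rests on 1 well of the 5, which held 8 transcripts. In 1 dpi replicate 1 the 9 wells with tissue markers held 0 CEBPD transcripts, and its 2 transcripts lay in a granulocyte and in a well without tissue markers.

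Without the tissue-marker wells the rise of CEBPD from 1 dpi to 3 dpi no longer passed. Other cells without them held 11 transcripts at 3 dpi and 1 at 1 dpi, a ratio of 15.2 with a counting interval of 2.21 to 656, and edgeR's adjusted p was 0.0564. In all cells without them the adjusted p was 0.104. In macrophage-marker cells the 1 dpi replicates had 1 and 0 transcripts, the 2 dpi library 2, and the 3 dpi replicates 2 and 0. From 1 dpi to 3 dpi, 6 of 19 tested keratinocyte genes and 8 of 19 fibroblast genes rose over all cells. So did 5 of 7 metaphocyte genes and 7 of 19 muscle genes, and 0 on these lists fell. Of all genes tested, 5.53% rose and 3.46% fell. On the endothelial and red cell lists, 0 of 4 and 0 of 5 tested genes rose or fell. The summed keratinocyte level was 844 and 77.5 CPM at 1 dpi and 11667 and 1675 CPM at 3 dpi, and the fibroblast level went from 68.2 and 38.8 CPM to 1138 and 425 CPM. Keratinocyte markers reached 11665 CPM in the uninjured library, nearly the level of 3 dpi replicate 1. CEBPD stood at 289 CPM in the former and 43.8 CPM in the latter. Other tissue lists differed between these libraries. Fibroblast markers measured 5651 CPM when uninjured against 1138 CPM, skeletal muscle markers 68737 against 155 CPM, and red cell markers 763 against 0.706 CPM. Metaphocyte and endothelial markers were lower when uninjured, at 964 against 1270 CPM and 23.5 against 40.3 CPM. The share of sorted wells with such markers and the amount of CEBPD per well cannot be told apart in the sums.

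**Figure D4:**
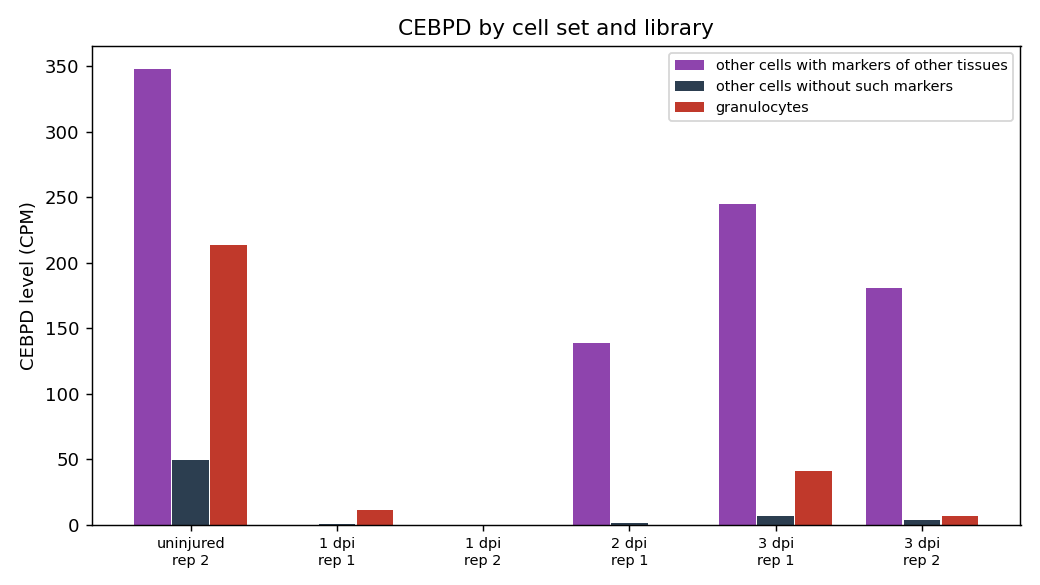
CEBPD level in CPM per library in other cells with markers of other tissues, other cells without them, and granulocytes. The first set is the highest in the uninjured, 2 dpi and 3 dpi libraries, at 138 to 348 CPM. In 1 dpi replicate 2 there were 0 such wells and 0 transcripts. The 2 dpi bar of this set rests on 1 well with 8 transcripts. The uninjured granulocyte bar stands for 8 transcripts in 1 of 5 cells, which also carried 1.54% fibroblast marker transcripts.

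Single wells were mixed. The well with the most CEBPD at 3 dpi had 18 transcripts and 14.5% of its transcripts from keratinocyte markers, and the only well with 2 or more at 2 dpi had 8 and 6.68%. At 3 dpi, 13 wells held 2 or more CEBPD transcripts, 8 in replicate 1 and 5 in replicate 2. Of these, 5 and 3 were wells with tissue markers, 1 was the granulocyte described above and 4 carried neither label. Over all of them the median macrophage-marker share was 0.0186% in replicate 1 and 0.0159% in replicate 2, where all macrophage-marker cells have at least 0.5%.

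In the uninjured library CEBPD was also found in macrophage-marker cells. There it was at 37.7 CPM, from 52 transcripts in 22 of 134 cells (16.4%, exact 95% interval 10.6 to 23.8), against 0 to 3.23 CPM in the injured libraries. One well held 23 of the 52 transcripts and lay close to both limits of this class, with 0.535% macrophage and 0.920% fibroblast marker transcripts. Without it, a value added after seeing the data, the level was 21.3 CPM, from 1 to 5 transcripts in each of 21 cells. After thinning this became 4 of 130 cells (3.08%) against 0 in every injured library. Skeletal muscle markers stood at 4823 CPM in those uninjured cells and at 34.9 to 88.8 CPM in the injured ones. Keratinocyte markers stood at 641 CPM in those uninjured cells and at 66.7 to 598 CPM in the injured ones, highest in 3 dpi replicate 1. Fibroblast markers stood at 865 CPM against 19.8 to 77.1 CPM. The part of free RNA in the CEBPD of these cells was not tested.

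The members were then compared between the injured groups and the uninjured library, in which 16.7% of 13900 genes passed (2.29% higher and 14.4% lower after injury) and 2 of 4 members did. The uninjured group is 1 library with no spread of its own, so these p-values compare that library with the others by the spread within the 1 dpi and 3 dpi pairs. CEBPB over all cells was 565 CPM in the uninjured library and 1415 to 1982 CPM in the injured ones, a difference of 1.54 (SE 0.71) that did not pass (edgeR adjusted p = 0.143). CEBPA was 55.7 CPM against 137 to 281 CPM, a difference of 1.75 (SE 0.61, edgeR adjusted p = 0.0341). CEBPD gave a difference of -6.19 (SE 0.57, edgeR adjusted p = 2.31e-14), and 88.7% of its uninjured transcripts lay in the 18 wells over 50000 transcripts. Without these wells its uninjured level was 109 CPM in place of 289 CPM. CEBPG, at 65.2 CPM against 35.6 to 91.1 CPM, differed by -0.08 (SE 0.54).

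The CEBPA call was lost without the wells with tissue markers and without the largest wells. In macrophage-marker cells its level was 198 CPM in the uninjured library and 189 to 350.02 CPM in the injured ones, and without tissue-marker wells the difference was 0.27 (adjusted p = 1.0). Without wells over 50000 transcripts it was 0.58 and after thinning 0.33, and neither passed; it was also lost without either 1 dpi replicate (adjusted p = 0.241 and 0.147) or the 2 dpi library (0.103). For CEBPB over all cells, 4 of 14 alternative settings brought the difference past the threshold and 10 did not, with values from 0.46 to 1.80. CEBPB in macrophage-marker cells was 1356 CPM in the uninjured library and 1335 to 2010 CPM in the injured ones, so the ranges overlapped.

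In injured against uninjured samples, 16.7% of all genes tested passed, 2.29% higher and 14.4% lower. Of 31 partner and regulator genes tested, 3 rose and 2 fell, with a median of 0.29 beside -0.16 for all genes. Among those that rose, SPI1 and nfil3-6 did so by 1.89 and 1.66. FOS and FOSL1 fell by 2.86 and 1.53. These sums hold all cells, with the tissue-marker wells and the largest wells of the uninjured library. Without either set of wells the CEBPA call was lost, as given above. Whether the differences of these partner and regulator genes hold without such wells was not tested. In the same comparison 19 of 19 tested muscle genes fell and 15 of 23 granulocyte genes rose, EPX, scpp8, npsn, MMP9, mmp13a and illr4 most clearly, by 3.01 to 5.44.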

How the data were processed

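Cells were sorted on mCherry into the wells of plates and processed by SORT-seq, which counts molecular identifiers at transcript 3′ ends, per the labels' protocols. The deposited values are expected counts, transcript numbers per gene and well that the authors corrected for identifier collisions; this reading comes from the values. Per the submitters' processing notes, BWA and the Zv9 build were used in a role that is not described. Counter and annotation version: not given in the sources used here. A table of identifiers and symbols matched 19001 of 25130 genes; many symbols are those of human counterparts. Files list genes with at least 1 transcript, so a missing row was read as 0.

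Members, gene lists and alternatives were chosen with earlier results of these data known. Wells with at least 500 gene transcripts were kept, spike-in and mCherry rows were left out, and sums per library and cell set were rounded and tested with edgeR 4.0.16 (TMM scaling, filterByExpr, robust quasi-likelihood test, Benjamini-Hochberg over all genes tested, threshold 0.05) in R 4.3.3. The time comparisons used all 6 libraries with 1 mean per group, so groups with 1 library borrowed the spread of the others. Granulocytes were compared with other cells over the 5 injured libraries, with npsn and EPX left out of the tested genes. Shares came from cells thinned to 1000 transcripts and were tested by exact permutation. The exact intervals of count ratios and shares, and the limits for 0 counts (3 transcripts), cover counting error only. The edgeR intervals of log2 differences come from its SE and also hold its estimate of the spread between libraries. No doublet caller was run. All members, up to 8 partner and regulator genes and up to 6 granulocyte genes per comparison, by adjusted p, were named, except that 2 of the counted partner and regulator genes are not reported here by name. The 1 dpi replicates were not copies of each other, with a chi-square of 14.3 per degree of freedom, nor were the 3 dpi replicates (23.8). Alternatives were RLE or library-size scaling, DESeq2 1.42.0, other filters, gates, thinning, left-out libraries and wells, and the replicate number as a block.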

Additional observations from a re-analysis of the deposited data

How the results depend on the processing

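Of 349 recalculated member values 302 kept direction and side of the threshold, 19 lost a call, 16 gained one and 12 changed sign; each that changed sign was uncalled. The 3 dpi minus 1 dpi difference of CEBPB in all cells became 0.078 after thinning to 1000, ran from -0.49 to 0.11 when 1 library was left out and was 0.0066 with only the 1 dpi and 3 dpi libraries and a replicate block; in other cells CEBPB became 0.16 and CEBPA 0.27 when only macrophage-marker cells were kept, and in granulocytes CEBPB became -0.019 after thinning. Thinning also turned the change of the CEBPB granulocyte difference between times to -0.026. With 1 library left out, CEBPG ran from -0.34 to 0.25 in injured minus uninjured and from -0.088 to 0.35 in granulocytes minus other cells, where it was -0.18 with no filter. With no filter the CEBPB granulocyte difference was 0.26 (adjusted p = 0.429); relative to the median of all genes tested it was 1.18 there. Granulocyte sums of CEBPD, with 0 to 8 transcripts, were too shallow to be tested. The share difference of CEBPD, granulocytes minus other cells, changed sign to 0.55 points at 2000 transcripts, 0.23 with the gate at 0.1% and ran from -0.23 to 0.019 with 1 library left out. That of CEBPG became -7.14 unthinned and ran from -1.53 to 1.53 with 1 library left out.

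The number of genes called depended on the setting; the cause was not tested. For 3 dpi minus 1 dpi in all cells it was 1250, and 663 with RLE scaling, 70 with library size alone (23 higher, 47 lower, against 769 and 481), 608 with DESeq2, 649 after thinning, and 14 to 3852 when 1 library was left out. With only the 1 dpi and 3 dpi libraries edgeR called 0 of 8730 genes (2555 at an unadjusted p under 0.05), and 2110 once the replicate block was added. In other cells it was 1195, and 62 with library size alone, 563 with DESeq2, 788 with no filter, 627 after thinning, 785 with the gate at 0.5%, 613 with macrophage-marker cells only, 0 with only the 1 dpi and 3 dpi libraries (2247 unadjusted) and 3 to 3977 with 1 library left out. In granulocytes it was 8, and 2 with DESeq2, 5 with no filter, 16 with wells of 1000 or more, 33 with the gate at 0.1%, and 0 to 5 with 1 library left out (195 unadjusted where 0). For injured minus uninjured it was 2315, and 1139 with DESeq2, 174 after thinning, 479 without wells over 50000, 158 without tissue-marker wells and 1392 to 4053 with 1 library left out. For granulocytes minus other cells it was 1881, and 701 of 1469 after thinning. For the granulocyte difference at 3 dpi minus that at 1 dpi it was 19, and 33 with library size alone, 8 with DESeq2, 8 with no filter, 12 after thinning, 40 with the gate at 0.1% and 4 to 27 with 1 library left out.

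Number 1 is carried by libraries of 1, 2 and 3 dpi and number 2 by uninjured, 1 dpi and 3 dpi libraries, so both numbers occur in 1 dpi and 3 dpi only. Same-numbered deviations correlated at 0.49 over 3093 genes, but with 2 pairs the samples share only a number. With the replicate block the calls over all cells were 1963, against 1250 without it.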

Other observations

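For each member the 3 genes with the most alike levels were sought over 11 sums, the granulocytes and other cells of each library with 10 or more cells, among 2631 genes, by Pearson's r of log2(CPM + 1). These sums share libraries, so r is a description. For CEBPB they were ENSDARG00000067755 (r = 0.95), SLC46A2, a solute carrier gene (0.94), and ENSDARG00000031715 (0.93). SLC46A2 ran from 20.9 CPM in the other cells of the uninjured library to 222 CPM. For CEBPA they were ENSDARG00000028514 and tmem179ba (0.90 each) and CMKLR1, a chemerin receptor gene (0.90), which was lowest, at 245 CPM, in the other cells of the uninjured library. For CEBPG they were DCTN3, a dynactin subunit gene (0.88), KIDINS220 (0.85) and the asparaginyl-tRNA synthetase gene NARS1 (0.84). For CEBPD they were ENSDARG00000082753 (0.83), ABAT, a GABA transaminase gene (0.80), and the heat shock gene hsp70l (0.78). All 3 of these were highest in the other cells of the uninjured library, at 3247, 177 and 718 CPM.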
